A study of Mus musculus with 16 samples.

Results

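DEAD and DEAH box proteins are RNA helicases, enzymes that use ATP to open RNA duplexes or to strip proteins from RNA. They are named after a short run of amino acids in their ATP-binding core, and act at nearly every step of the life of an RNA, from transcription and splicing to export, translation, decay and the making of ribosomes. A few of them bind viral RNA and start the interferon response. N6-methyladenosine (m6A), the second measurement here, is a methyl mark that enzymes write on adenosines inside mRNAs. The genes described here were chosen by symbol alone: those beginning with Ddx or Dhx and a digit, without a pseudogene mark, with a mean count above 0. Of 53 such symbols in the authors' deposited table of RNA comparisons, 52 had a mean count above 0, out of 25239 genes listed. They comprise 36 Ddx and 16 Dhx genes. The symbol left out was Ddx3y, the Y-linked copy of Ddx3x, which was listed at 0 in the authors' deposited table. Of these helicase genes, 51 had a deposited adjusted p and are called tested. Ddx43, a germ-line helicase with a mean of 8.78 counts, had none in the authors' deposited table.

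Wild type mice had their ovaries removed (ovariectomy, OVX) or underwent a sham operation, and RNA was taken from bone. In each arm there were 4 input libraries (RNA before the pull-down) and 4 immunoprecipitated (IP) libraries (RNA pulled down with an antibody to m6A), 16 in all. The title NC was read as sham, although the treatment label of every IP library, NC included, reads ovariectomy. Age is not given in the sources used here. Because no label ties a library to an animal of its own, the deposited p-values may reflect technical spread alone. The files used here hold comparisons of the arms and no value per library, so whether single libraries of the arms overlap cannot be said. The direction of the fold changes is unstated: a positive sign may mean higher in either arm, and signs are printed as deposited.

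Marker genes of cell types and states, those of skeletal muscle included, were read from the same comparison. A gene is named called at a deposited adjusted p under 0.05, as 12.2% of all tested genes were. For the B lineage list, the authors' deposited table had 16 of 16 genes positive (14 called, range 0.22 to 3.07 on the log2 scale), and the interferon list had 17 of 18 positive (10 called, median 0.97). The skeletal muscle list was negative in 16 of 16 genes (3 called, range -1.89 to -0.86), with mean counts of 11882 to 336368 in the authors' deposited table. Proliferation genes were positive in 18 of 18 cases, 5 of them called, and erythroid genes in 8 of 9, 4 of them called, in the authors' deposited table. No neutrophil gene of 10 was called in the authors' deposited table (3 positive, 7 negative, 0 with an unadjusted p under 0.05). The bone cell markers (osteoblast and osteocyte) were present, with mean counts of 482 to 99868 over 12 tested genes, of which 4 were positive and 2 called, in the authors' deposited table. In RNA from whole bone, fewer cells of a type and less RNA per cell cannot be told apart. The part of these markers in the helicase values was not tested.

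As a family the helicase genes differed little in RNA level between the arms. Of 51 tested members, 7 were called, 6 positive and 1 negative, in the authors' deposited table. That is 13.7% of the members, beside 12.2% of all 15396 tested genes, with 6.07% positive and 6.11% negative. A share this near the background is not a result about helicases. Signs were balanced in the authors' deposited table, with 26 members positive and 25 negative, and the median log2 fold change was 0.02, beside -0.02 over all tested genes. Recentred on the median of all tested genes, 29 members were positive, and 26 when recentred on the median of abundant genes (mean of 1000 counts or more). The median absolute log2 fold change was 0.10 for the helicases, 0.20 for all tested genes and 0.15 for these abundant genes in the authors' deposited table. The range ran from -0.30 in Dhx32 to 0.50 in Dhx58 in the authors' deposited table. The median standard error (SE) of 0.10 in the authors' deposited table was as large as the median absolute change. The median SE was 0.17 for all tested genes and 0.12 for the abundant genes, so the smaller helicase changes came with smaller errors. An unadjusted p under 0.05 was found in 13 of the 51 members. Over all 15396 tested genes the count was 3957, and 2160 of the 7184 abundant genes had such a p, so nothing particular to helicases is read from it.

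**Figure D1:**
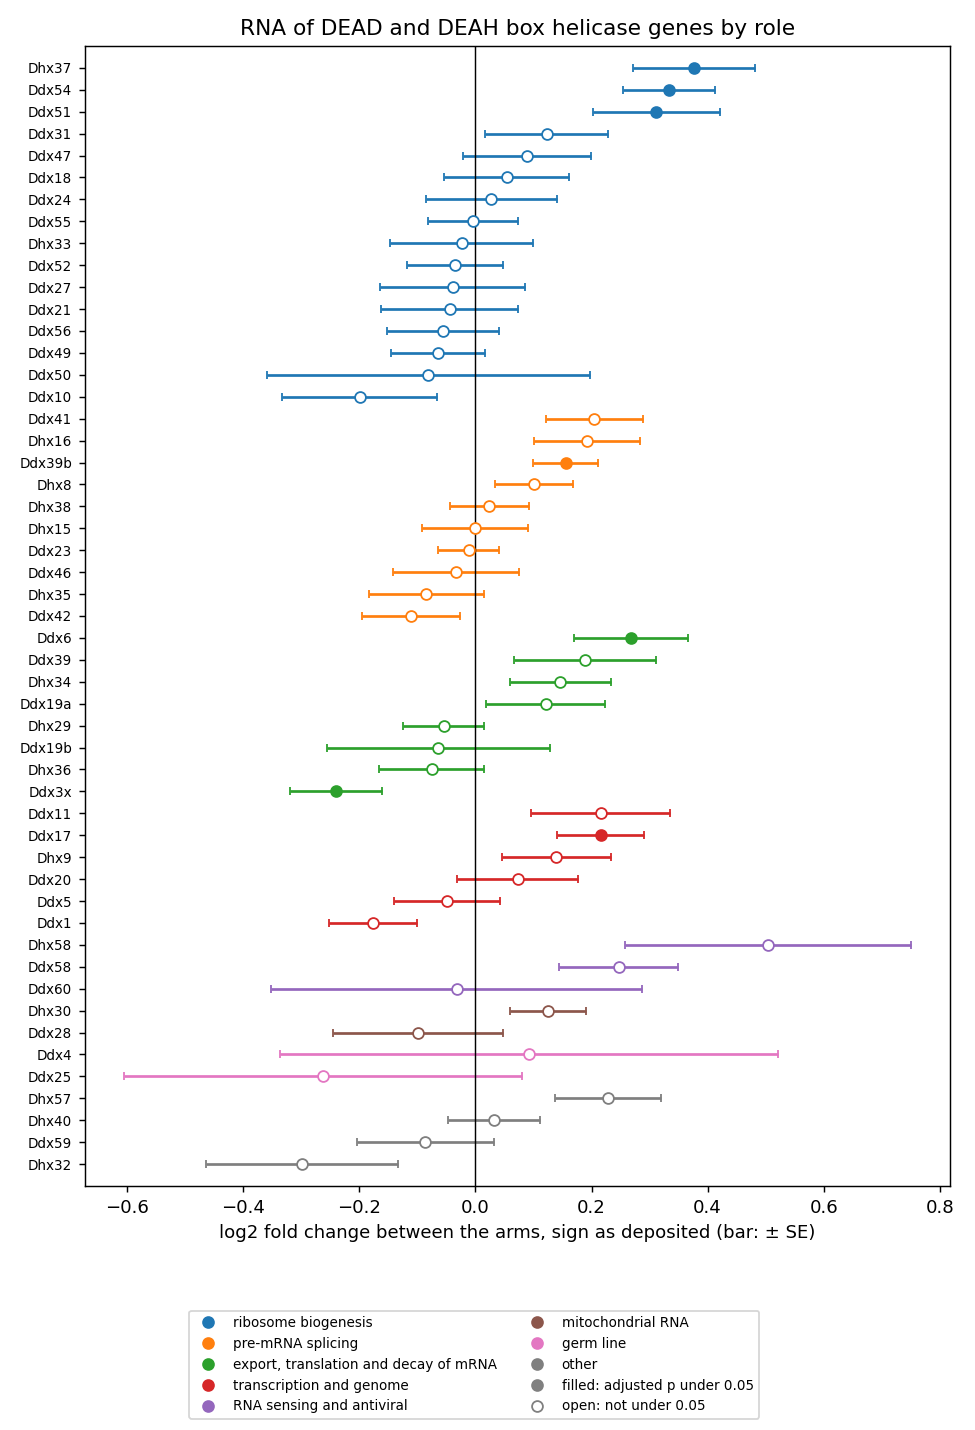
Log2 fold change between the arms (x axis, sign as deposited) with its SE as the bar, for the 51 tested helicase genes (y axis), coloured by role. Filled points have a deposited adjusted p under 0.05: Dhx37, Ddx54, Ddx51, Ddx39b, Ddx6 and Ddx17 lie right of 0 and Ddx3x lies left of it.

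Ribosome biogenesis helicases held the 2 smallest p-values of the family. These enzymes act in the nucleolus, where they remodel pre-ribosomal RNA and release small nucleolar RNAs from it. In the authors' deposited table, 3 of 16 were called (18.8%, beside 12.2% of all tested genes), all positive. Of the 16, 7 were positive and 9 negative, and the list's median was -0.01. With 16 genes this share is not read as a difference from the background. Ddx54, a nucleolar helicase that also binds nuclear receptors, had a mean of 5327 counts and a log2 fold change of 0.33 ± 0.08 (SE), or 1.26-fold, with an adjusted p of 0.00105 in the authors' deposited table. Ddx54 ranked 377 among the tested genes by p. Dhx37, which acts in the maturation of the small ribosomal subunit, had a mean of 1739 counts and 0.38 ± 0.11, or 1.30-fold, with an adjusted p of 0.00656 in the authors' deposited table. Ddx51, needed for the 3′ end of the large subunit's RNA, had a mean of 979 counts and 0.31 ± 0.11, or 1.24-fold, with an adjusted p of 0.0396 in the authors' deposited table. These 3 values lay within 1 SE of each other. The 13 uncalled genes had values between -0.20 (Ddx10, a factor of small-subunit assembly) and 0.12 (Ddx31) in the authors' deposited table. Ddx10 had an SE of 0.13 and Ddx31 of 0.11 in the authors' deposited table, so neither extreme was far from 0 for its error. Ddx47, Ddx18, Ddx24 and Ddx27 had 0.09 ± 0.11, 0.05 ± 0.11, 0.03 ± 0.11 and -0.04 ± 0.12, and Ddx49, Ddx56, Ddx52 and Ddx55 had -0.06 ± 0.08, -0.06 ± 0.10, -0.04 ± 0.08 and -0.0040 ± 0.08 in the authors' deposited table. Ddx21, an abundant nucleolar helicase that also senses the state of transcription, had -0.04 ± 0.12, and its close relative Ddx50 had -0.08 ± 0.28 in the authors' deposited table.

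The promoters of these 3 called ribosome genes are shown because their calls have the same sign. The stretches below lie before the gene start, outside any RefSeq gene, are written 5′ to 3′ on the strand of the gene and come from RefSeq on GRCm38.p6. Capitals mark a GC box, the motif GGGCGG or its reverse complement.
Ddx54, chr5:120612880-120613081, plus strand: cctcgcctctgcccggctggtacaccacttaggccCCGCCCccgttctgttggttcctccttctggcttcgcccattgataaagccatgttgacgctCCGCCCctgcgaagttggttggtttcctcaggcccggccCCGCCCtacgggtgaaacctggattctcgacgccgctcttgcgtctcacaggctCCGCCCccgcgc
Dhx37, chr5:125434140-125434298, minus strand: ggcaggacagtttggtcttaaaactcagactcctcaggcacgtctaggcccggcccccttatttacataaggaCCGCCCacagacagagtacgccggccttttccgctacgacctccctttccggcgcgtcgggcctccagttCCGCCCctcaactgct
Ddx51, chr5:110653383-110653431, plus strand: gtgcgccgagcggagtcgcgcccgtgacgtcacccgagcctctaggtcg
All 3 stretches are rich in G and C, at 65.3% in Ddx54, 60.4% in Dhx37 and 73.5% in Ddx51. The Ddx51 stretch holds no GC box, but it is short. The longer promoter window of Ddx51, used for the motif counts below, does hold a GC box. The Ddx51 stretch of 49 bases lies between the RefSeq gene spans of Ddx51 and its head-to-head neighbour Noc4l, itself a factor of small-subunit assembly. Noc4l had 0.19 ± 0.09 in the authors' deposited table, the same sign as Ddx51, and was not called (adjusted p = 0.142).

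Other ribosome biogenesis factors also had small values. Of 33 such genes without a helicase symbol, 1 was called in the authors' deposited table (3.03%, beside 12.2% of all tested genes). By sign, 19 were positive and 14 negative, and the median was 0.03. The called gene was Bop1, which works in large-subunit assembly, with 0.24 ± 0.08 in the authors' deposited table (adjusted p = 0.0314). Recentring on the median of all tested genes gave 2 calls in this list, and recentring on highly expressed genes gave 0.

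Helicases of mRNA export, translation and decay included Ddx3x, the 1 called member whose sign was negative. In the authors' deposited table, 2 of 8 tested members were called, 1 in each direction, and 4 were positive and 4 negative. Ddx3x, an X-linked helicase that promotes translation of mRNAs with structured leaders, had a mean of 25227 counts and -0.24 ± 0.08 (95% interval -0.40 to -0.08), with an adjusted p of 0.0280 in the authors' deposited table. Ddx6, which represses translation and promotes decay in processing bodies, had a mean of 10297 counts and 0.27 ± 0.10, with an adjusted p of 0.0491 in the authors' deposited table. So both abundant genes were called, with opposite signs, and Ddx6 lay just under the threshold. The uncalled members spanned -0.08 (Dhx36, an enzyme that unwinds G-quadruplexes) to 0.19 (Ddx39, an mRNA export helicase) in the authors' deposited table. Dhx29, which helps scanning ribosomes through structured leaders, had -0.05 ± 0.07, and Dhx34, a factor of nonsense-mediated decay, had 0.15 ± 0.09 in the authors' deposited table. Ddx19a and Ddx19b, close copies that release mRNA at the nuclear pore and could share reads, had 0.12 ± 0.10 and -0.06 ± 0.19 in the authors' deposited table.

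Splicing helicases, which drive the rearrangements of the spliceosome, were called once. In the authors' deposited table, 1 of 10 was called, 5 were positive and 5 negative, and the median was 0.01. The called gene was Ddx39b, which acts in early spliceosome assembly and in mRNA export, with a mean of 6052 counts and 0.16 ± 0.06 (adjusted p = 0.0472) in the authors' deposited table. Next by p were Ddx41, a splicing helicase known from inherited myeloid leukemia, with 0.20 ± 0.08 (adjusted p = 0.0876), and Dhx16, with 0.19 ± 0.09 (adjusted p = 0.154), in the authors' deposited table. The abundant Ddx46, a partner of the branch-site complex, had -0.03 ± 0.11 and Dhx38, which acts before the second step of splicing, had 0.02 ± 0.07 in the authors' deposited table. Dhx8, which frees the finished mRNA, had 0.10 ± 0.07, Ddx23 of the U5 particle had -0.01 ± 0.05, Ddx42 had -0.11 ± 0.08 and Dhx35 had -0.08 ± 0.10 in the authors' deposited table. For Dhx15, which takes the spliceosome apart, the value of -0.00095 had a 95% interval of -0.18 to 0.18 in the authors' deposited table. Of 26 proteins that switch helicases on (G-patch and MIF4G proteins), 1 was called (3.85%, beside 12.2% of all tested genes). It was the splicing regulator Rbm10 with 0.35 ± 0.09 (adjusted p = 0.0033) in the authors' deposited table, and the list's median was 0.03.

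Transcription and genome helicases had 1 of 6 called in the authors' deposited table (16.7%, beside 12.2% of all tested genes). Each gene was listed under 1 role only, and Ddx20 and Ddx1 of this list also have the other roles given below. Ddx17, a coregulator of transcription and of microRNA processing, had a mean of 21514 counts and 0.22 ± 0.07 (adjusted p = 0.0364) in the authors' deposited table. Its close relative Ddx5, the helicase gene with the highest mean count (49722), had -0.05 ± 0.09 (95% interval -0.23 to 0.13) in the authors' deposited table. Whether the relatives Ddx17 and Ddx5 differ from each other was not tested. Ddx11, a DNA helicase of sister chromatid cohesion, had 0.22 ± 0.12, Dhx9, known from R-loop resolution, had 0.14 ± 0.09 and Ddx20, a part of the SMN complex, had 0.07 ± 0.10 in the authors' deposited table. Ddx1, which acts in RNA transport and tRNA ligation, had -0.18 ± 0.08 (adjusted p = 0.108) in the authors' deposited table. Upstream of Ddx17 and Ddx39b the RefSeq windows (GRCm38.p6, 5′ to 3′ on the strand of the gene) held an ETS site, the motif CCGGAAG or its reverse complement, which is in capitals below together with any GC box.
Ddx17, chr15:79546765-79546991, minus strand: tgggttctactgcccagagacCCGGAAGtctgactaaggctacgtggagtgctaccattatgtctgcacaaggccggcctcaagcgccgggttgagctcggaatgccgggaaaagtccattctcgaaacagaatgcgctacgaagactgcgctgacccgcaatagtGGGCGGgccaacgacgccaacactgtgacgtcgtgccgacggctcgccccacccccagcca
Ddx39b, chr17:35241496-35241745, plus strand: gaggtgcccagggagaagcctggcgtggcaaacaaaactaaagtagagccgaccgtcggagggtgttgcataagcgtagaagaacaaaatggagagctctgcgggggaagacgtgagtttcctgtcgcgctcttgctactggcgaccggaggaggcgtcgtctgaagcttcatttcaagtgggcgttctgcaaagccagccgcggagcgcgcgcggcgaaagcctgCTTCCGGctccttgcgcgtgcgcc
Over windows of 300 bases (250 before the start and 50 after), CCGGAAG on either strand was in 21 of 57 windows of the 46 helicase genes that had one (36.8%). The same motif was in 15.3% of the 15221 windows of tested genes and 8.86% of all 32851 windows. GGGCGG on either strand was in 59.6% of helicase windows and 58.5% of windows of tested genes. CACGTG, the E-box, was in 12.3% and 9.53%, and CCAAT on either strand was in 45.6% and 37.5%. TATAAA was in 10.5% and 8.08%, and a palindromic site of the factor NRF1 was in 5.26% (3 windows, of Dhx34 and Dhx37) and 1.79%. A gene with several starts is counted once per window. No helicase window held a perfect palindromic estrogen response element (GGTCA and TGACC with 3 bases between), and 0.0131% of windows of tested genes did. By gene, CCGGAAG was in the windows of 19 of the 46 helicase genes. Of the 19, 4 were called (Ddx54, Dhx37, Ddx17 and Ddx39b) and the others were not. The called share was 13.7% over the tested helicase genes and 12.2% over all tested genes. With 19 genes the count is not read as a difference from those shares. Whether the site goes with a call was not tested. A motif match describes the letters and is no evidence of binding.

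RNA-sensing helicases were not called, and the interferon list was largely positive. Of the 3 sensing helicases, 2 (Ddx58 and Dhx58) were positive with an unadjusted p under 0.05. Ddx58 encodes RIG-I, the sensor of viral RNA ends, and had 0.25 ± 0.10 (adjusted p = 0.0955) at a mean of 1710 counts in the authors' deposited table. Dhx58 encodes LGP2, a regulator of RIG-I and MDA5, and had the largest value of the family, 0.50 ± 0.25 (adjusted p = 0.172), in the authors' deposited table. Its 95% interval of 0.02 to 0.99 was wide. Ddx60, an interferon-induced antiviral helicase, had -0.03 ± 0.32 (95% interval -0.66 to 0.60) in the authors' deposited table. The error of these genes was 0.10 to 0.32, which limits what could be detected. Of their partners in RIG-I signalling, 4 of 11 tested genes were called (36.4%, beside 12.2% of all tested genes), each with a positive sign. The list had a median of 0.21 in the authors' deposited table. Whether this differs from the sensors was not tested. The 4 were Trim25, the ubiquitin ligase of RIG-I, with 0.60 ± 0.12, the transcription factors Irf7 and Irf3 with 0.88 ± 0.24 and 0.28 ± 0.09, and the antiviral protein gene Zc3hav1 with 0.28 ± 0.10, in the authors' deposited table. Irf7 is also a gene of the interferon list, so the lists are not separate. Ifih1, which encodes MDA5, had 0.24 ± 0.16 and was not called in the authors' deposited table. A simple form of the interferon response element, GAAA repeated after 2 further bases, on either strand, was in the windows of 3 helicase genes, Ddx49, Ddx58 and Ddx60. That is 4 of 57 helicase windows (7.02%), beside 3.23% of windows of tested genes. Overlapping windows of Ddx49 with the same site were counted separately, and no excess is read from so few. It is in capitals, with a CCAAT box, in the stretch before the start of Ddx60 (RefSeq, GRCm38.p6).
Ddx60, chr8:61927837-61928072, plus strand: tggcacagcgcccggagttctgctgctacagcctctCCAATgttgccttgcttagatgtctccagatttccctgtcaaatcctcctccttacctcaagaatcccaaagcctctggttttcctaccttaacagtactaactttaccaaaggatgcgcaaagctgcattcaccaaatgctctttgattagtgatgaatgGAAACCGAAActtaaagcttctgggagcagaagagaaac

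The remaining helicase genes had no call. Of the mitochondrial pair, Dhx30, which acts on mitochondrial ribosomes, had 0.13 ± 0.07 and Ddx28 had -0.10 ± 0.15 in the authors' deposited table. Germ-line helicases had the lowest means of the tested family, 39.0 counts for Ddx25 and 100.3 for Ddx4, the vasa gene, in the authors' deposited table. Ddx25 had -0.26 ± 0.34 and Ddx4 had 0.09 ± 0.43 in the authors' deposited table. Dhx57, with 0.23 ± 0.09 (adjusted p = 0.0809), came closest to the threshold among the uncalled genes in the authors' deposited table. The pair Dhx40 and Ddx59 had 0.03 ± 0.08 and -0.09 ± 0.12 in the authors' deposited table. Dhx32 had the lowest tested value, -0.30 ± 0.16 (adjusted p = 0.239), in the authors' deposited table. Among 20 tested RNA helicases with other symbols, 16 were positive in the authors' deposited table, with a median of 0.08. Positive signs made up 46.7% of all tested genes and 53.5% of abundant genes (mean of 1000 counts or more). Whether the list differs from these shares was not tested. Ifih1 is also in the list of RIG-I signalling, so the lists are not separate. Beside 12.2% of all tested genes, 2 of the 20 were called in the authors' deposited table. These were Helz2, an interferon-induced coactivator, with 0.61 ± 0.08 (adjusted p = 1.7e-10), and Helz with 0.28 ± 0.09 (adjusted p = 0.0259) in the authors' deposited table.

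**Figure D2:**
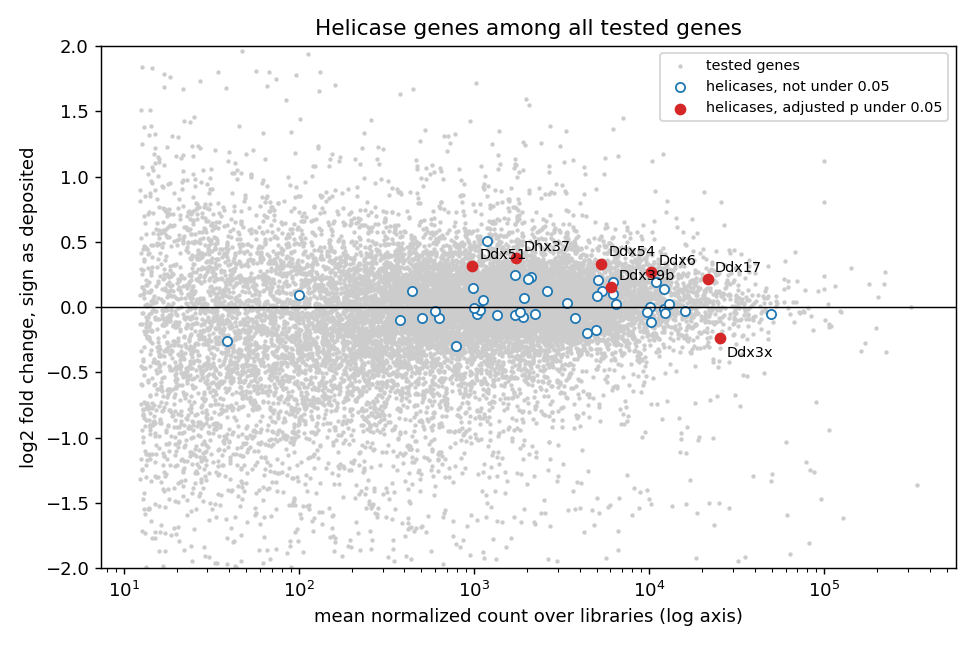
Mean normalized count (x axis, log scale) against log2 fold change (y axis, sign as deposited) for all tested genes in grey and the 51 tested helicase genes as circles, red where called. The helicases lie in the narrow band near 0, and 109 tested genes with an absolute value above 2 are outside the plot.

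Most calls of the family stood close to the threshold. With values of the authors' deposited table recentred on the median of all tested genes, the 6 positive calls were kept and Dhx57 was added (adjusted p = 0.0491), which made 7. With values of the authors' deposited table recentred on the median of abundant genes, 2 positive calls were left, Ddx54 (adjusted p = 0.00234) and Dhx37 (0.0112), and Ddx17, Ddx51, Ddx39b and Ddx6 were lost (0.0636, 0.0581, 0.0948 and 0.0736). Ddx3x was called in every recentring, with adjusted p-values of 0.0487 and 0.0153. With p-values adjusted over every gene that has one, Ddx39b (0.0573) and Ddx6 (0.0595) were lost.

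Some helicase genes start head to head with a neighbour. Within 1000 bases, 9 of 46 helicase genes with a promoter window (19.6%) had the start of another gene facing away on the opposite strand, beside 18.3% of all tested genes with a window. For 8 of these pairs both genes were tested, and 6 of the 8 had the same sign. Over all tested genes the share was 57.1% of 1584 entries, where each pair is entered once from either gene. The partner was called in 1 of 8 (12.5%), beside 10.5% over all tested genes, and nothing particular to the helicases is read from these counts. Ccdc47, the neighbour of Ddx42 at 559 bases, was that partner, with -0.29 ± 0.08 (adjusted p = 0.0031) beside -0.11 ± 0.08 for Ddx42 in the authors' deposited table. Mtrex, the exosome helicase gene that starts 300 bases from Dhx29, had -0.04 ± 0.08 beside -0.05 ± 0.07 for Dhx29 in the authors' deposited table. Rita1, 541 bases from Ddx54, had 0.17 ± 0.19 at a mean of 126 counts in the authors' deposited table.

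Helicase transcripts carried m6A peaks in many cases. The authors' deposited table of peaks held 76 peaks in 38 of the helicase genes, out of 13083 peaks in 6847 genes. Among tested helicase genes 74.5% had a peak (exact 95% interval 60.4 to 85.7), beside 44.3% of all tested genes. At a mean of at least 1000 counts these shares were 80.0% (64.4 to 90.9) and 65.7%, so the gap was narrower among abundant genes. That interval includes 65.7%, so no excess of genes with a peak is read among abundant helicase genes. Peaks numbered 1 in 18 helicase genes, 3 or more in 11, and at most 5, in Ddx42 and Dhx29, in the authors' deposited table. Ddx21, Ddx46 and Dhx38 had 4 each, and Ddx6, Ddx23, Ddx24, Ddx52, Ddx59 and Dhx57 had 3. Of the called RNAs, Ddx39b had no peak, Ddx3x had 2, Ddx6 had 3 and the other 4 had 1 each in the authors' deposited table. Neither Ddx58 nor Dhx58 had a peak, and Ddx60 had 2. A gene without a listed peak is not shown to lack m6A.

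Enrichment over input was ordinary for the family and high in Ddx6. The helicase peaks had a median IP-over-input ratio of 1.84 (quartiles 1.52 and 2.08), beside 1.82 for all peaks, in the authors' deposited table. A ratio of at least 2 was reached by 22 of 76 helicase peaks (28.9%), beside 37.3% of all peaks. The highest ratio of the family was 4.83, in a Ddx6 peak at chromosome 9, 44635831 to 44636802, in the authors' deposited table. Its neighbours in Ddx6 had 3.25 on the 5′ side (44607226 to 44607425) and 2.46 on the 3′ side (44637101 to 44637399) in the authors' deposited table. So all 3 Ddx6 peaks lay above the upper quartile of all peaks, 2.20. Other high ratios were those of single peaks of the ribosome factors Ddx55, with 3.76 (chromosome 5, 124567933 to 124568761), and Ddx50, with 3.19 (chromosome 10, 62643361 to 62647628), in the authors' deposited table. The last peak of Ddx42 had 2.93 (chromosome 11, 106247606 to 106248299), while 3 of its other 4 peaks lay at 1.31 to 1.47 in the authors' deposited table. The lowest ratio, 1.10, was in Dhx36 in the authors' deposited table.

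**Figure D3:**
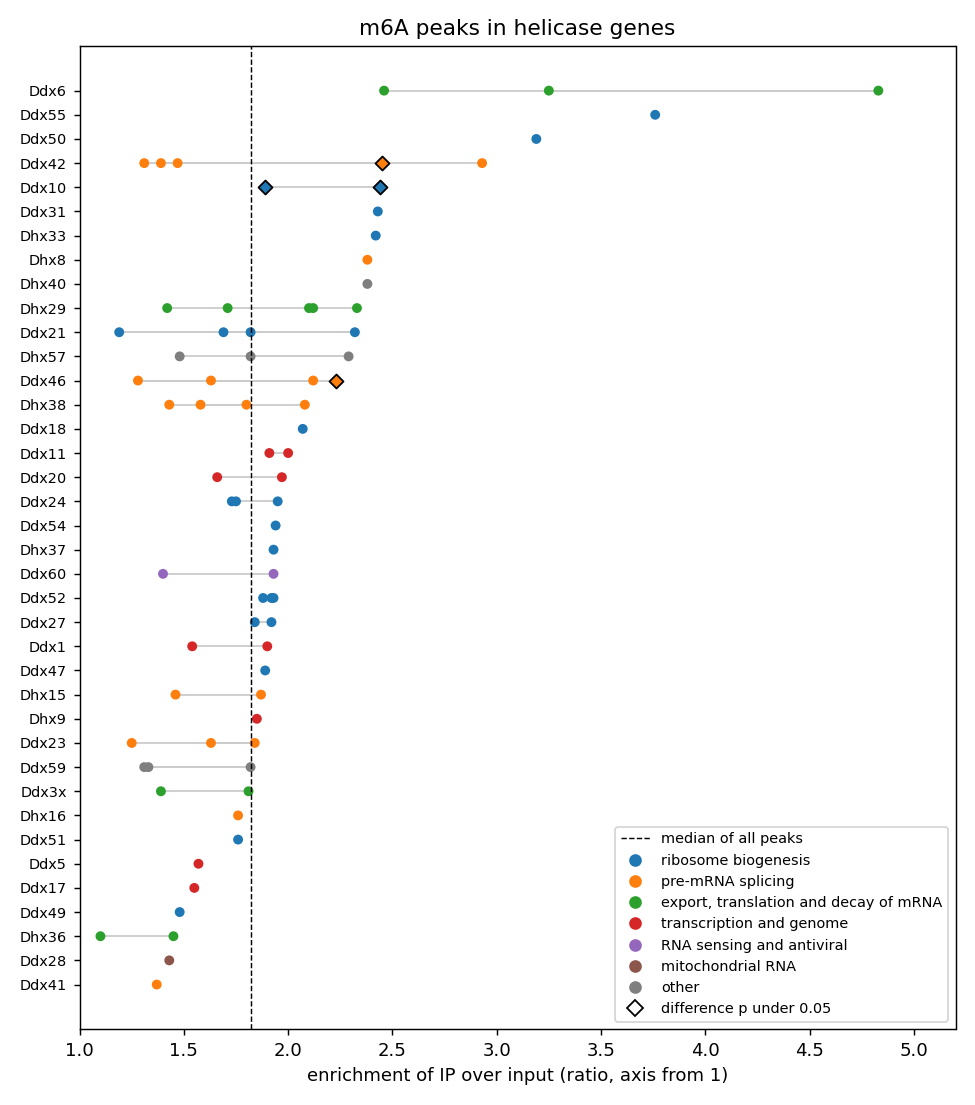
IP-over-input ratio (x axis, starting at 1) of each of the 76 peaks in the 38 helicase genes with a peak (y axis), coloured by role, with a dashed line at the median of all peaks, 1.82. The highest point is a Ddx6 peak at 4.83, followed by Ddx55 at 3.76, and diamonds mark the 4 peaks with a difference p under 0.05, in Ddx10, Ddx42 and Ddx46.

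Many helicase peaks were split over exons. In all, 50 of 76 (65.8%, exact 95% interval 54.0 to 76.3) had 2 or more exon blocks in the authors' deposited table, beside 40.1% of all peaks. Peaks of a gene share its exon structure, so the interval is too narrow. Their exonic length had a median of 198.5 bases, beside 151 for all peaks. The most divided was the 5′ peak of Ddx1, with 7 blocks (chromosome 12, 13240901 to 13249125) in the authors' deposited table. Among the 20 helicase genes with several peaks, the highest ratio was in the 3′-most peak in 9 (45.0%), beside 39.6% of all such genes. Of the 76 peaks, 14 shared their deposited peak p with another peak of the same gene, so they may not be separate tests.

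Differences in m6A between the arms were small. In the authors' deposited table, 4 of 76 helicase peaks (5.26%) had a difference p under 0.05, beside 4.92% of all peaks. All 4 were positive, where 3.6% of all peaks were positive and 1.32% negative at that p. At a false discovery rate (FDR) under 0.05 no helicase peak was called, and 0.0229% of all peaks were. The smallest p was in Ddx10, a ribosome biogenesis helicase, in a peak of 5 exon blocks (chromosome 9, 53099197 to 53159921) with a log2 difference of 0.30 (p = 6.5e-05, FDR = 0.105) in the authors' deposited table. It ranked 8 among all 13083 peaks by difference p. The second peak of Ddx10 (53204160 to 53204457) had 0.22 (p = 0.0219) in the authors' deposited table, so both peaks of this gene were positive. Ddx46 protein has been linked to m6A removal through the demethylase ALKBH5, in antiviral transcripts. Its own transcript had 0.20 in its 5′ peak of 6 blocks (chromosome 13, 55638028 to 55652142, p = 0.00245) in the authors' deposited table. Its other 3 peaks had 0.19 to 0.28 with larger p-values. Ddx42 had 0.18 in its second peak (chromosome 11, 106224810 to 106230689, p = 0.0282) in the authors' deposited table. A Ddx6 peak (44637101 to 44637399) lay just outside the threshold with -0.29 (p = 0.0513), the lowest difference of the family, in the authors' deposited table.

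The sign of the differences leaned positive, as it did over all peaks. Of 76 helicase peaks 53 (69.7%) were positive in the authors' deposited table, beside 60.6% of all peaks. Relative to the median difference of all peaks, 0.05, 40 of the 76 were above. Splicing helicases had 19 of 21 peaks positive in 8 genes in the authors' deposited table, with a median of 0.11, and 14 of 21 above the median of all peaks. Ribosome biogenesis helicases had 17 of 24 positive in 15 genes, with a median of 0.05, and transcription and genome helicases had 6 of 9, with a median of 0.09, in the authors' deposited table. Helicases of mRNA export, translation and decay had 7 of 12 positive, with a median of 0.0050, and the genes without a listed role had 2 of 7, with a median of -0.04, in the authors' deposited table. The RNA sensor Ddx60 had 1 of 2 peaks positive, and the mitochondrial Ddx28 had 1 of 1, in the authors' deposited table. Peaks of a gene share libraries and RNA, and these counts are descriptions.

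**Figure D4:**
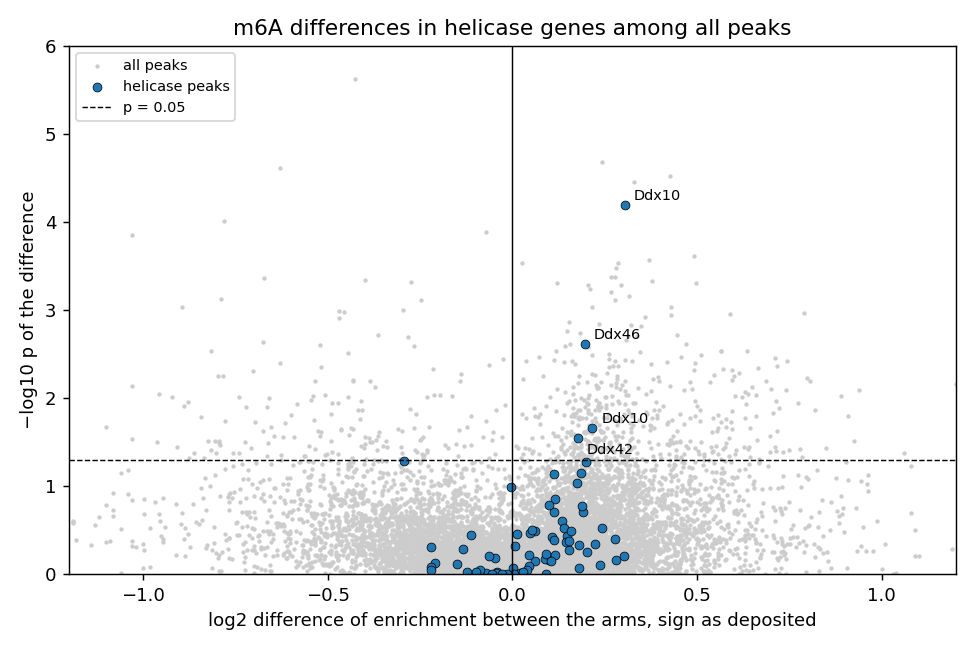
Log2 difference of enrichment between the arms (x axis, sign as deposited) against −log10 of its p (y axis) for all peaks in grey and the 76 helicase peaks in blue. The 5-block Ddx10 peak is the highest helicase point, a dashed line marks the threshold of 0.05, and 51 peaks are outside the plot.

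The helicase genes with the smallest m6A difference p-values had uncalled RNA values. Of the 7 helicases called in RNA, 0 had a peak with a difference p under 0.05, where 3 helicase genes had such a peak. Over all tested genes, 94 had both, which is 5.01% of the 1875 called in RNA and 15.6% of the 601 with such a peak. With 7 and 3 helicase genes, a count of 0 is not read as a difference from that background. Ddx10, Ddx46 and Ddx42 had RNA fold changes (log2) of -0.20 ± 0.13, -0.03 ± 0.11 and -0.11 ± 0.08 in the authors' deposited table, with adjusted p-values of 0.350, 0.886 and 0.432. Their m6A differences were positive and their RNA values negative, as deposited, and whether the numerator arm is the same in both tables is not stated.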

How the data were processed

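RNA and m6A were measured in bone from 16 libraries, 4 per group. Per the submitters' processing notes, HISAT2, StringTie, DESeq and the rat build rn6 were named, with no version and no role. All samples are labelled mouse, and all 76 helicase peaks lay inside the gene of that name in RefSeq on GRCm38.p6. In the RNA table, the authors deposited the mean normalized signal (size-factor-scaled counts), the log2 fold change and SE, the test statistic (a score), and p-values before and after adjustment. Per the labels' protocols, libraries were stranded and carried molecular identifiers. In the peak table, the authors deposited a peak p-value, log10 values of it and of its FDR, the ratio of IP over input, and a log2 difference between the arms with log10 p and FDR (named a score here). The peak caller is not given in the sources used here, nor is any pooling of replicates. Other columns of the peak table, such as the number of exon blocks, were used as deposited.

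No test on values per library could be run. A gene was called at an adjusted p under 0.05 in the deposited column, which is the Benjamini-Hochberg adjustment across 15396 genes (lowest mean 12.4 counts). Recentred values used the deposited SE, a Wald p for each gene and a new adjustment, with code tested on simulated data. Intervals of 95% came from the SE, or were exact binomial and cover counting error only. Peak starts were taken as counted from 0 and are printed counted from 1. The depth of single libraries is unknown, and replicates could not be left out. Members and lists were chosen with earlier results of these data known. Every called member is named, with the 5 uncalled of smallest p, the 3 of highest mean, the 3 of largest change, the smallest p of each uncalled role, and up to 4 called genes per pathway list. Of peaks, those with a difference p under 0.05, the 5 of highest ratio and genes with 3 or more were named. Promoters, motifs, head-to-head neighbours and other genes named were chosen after values were seen, in place of planned protein and peak sequences. Work used Python 3.11.15, numpy 2.4.6, pandas 2.3.3, scipy 1.17.1 and matplotlib 3.10.9.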

Additional observations from a re-analysis of the deposited data

How the results depend on the processing

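The 6 positive helicase calls became 2 at an adjusted p under 0.01, 2 when recentred on abundant genes (mean of 1000 counts or more) and 3 with a minimum absolute log2 change of 0.3. The negative call became 0 at 0.01 and 0 at the minimum fold change of 0.3. The 38 helicase genes with a peak became 16, and their 76 peaks 22, at a ratio of at least 2. The 4 peaks with a difference p under 0.05 became 2 at a p under 0.01 and 0 at an FDR under 0.05. The other 19 alternatives of these counts and of the median fold change stayed within 1.5 times or within the SE. Recentring peak differences was chosen after seeing the data. No paired analysis was possible because the tables hold no value for a single library, and for the same reason no replicate was left out.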
